A study of Mus musculus with 6 samples.

Results

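The p53 pathway and its DNA damage targets were followed as 32 named genes in RNA sequencing of mouse liver tumours. All 32 symbols were found once each among the 43346 genes of the deposited count table, and 31 had enough reads to be tested. The tumours had been induced with diethylnitrosamine (DEN), a carcinogen that hepatocytes convert into a DNA-alkylating agent, in mice that overexpress SULF2, an extracellular heparan sulfate sulfatase (line name Sulf2-TTR). There were 3 libraries from Gli1 wild-type (WT) tumours and 3 from Gli1 knockout (KO) tumours, and the comparison asks what loss of GLI1, a Hedgehog pathway transcription factor, changed. By the labels DEN and SULF2 overexpression were common to both groups, although Sulf2 RNA was high in only 1 library of each genotype, and no liver without a tumour was in the series, so the values say nothing of how far the tumours lay from normal liver. The labels leave out the age of the mice, the dose of DEN, how Gli1 was deleted, what TTR stands for and whether 1 animal gave more than 1 tumour. The p-values therefore take these 6 samples as independent and could be too small if tumours shared an animal. They cover the spread between the samples, part of which may be technical.

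The tumour suppressor p53, encoded by Trp53, is a transcription factor that accumulates when kinases sense damaged DNA. It then switches on genes for cell cycle arrest, DNA repair and cell death, and also Mdm2, whose product returns p53 to the proteasome and closes a feedback loop. In liver, p53 and its target p21 (Cdkn1a) restrain hepatocyte division after injury, and DEN is widely used to raise tumours in mouse liver through DNA damage. Because p53 is controlled mainly at the protein level, the RNA of its targets is the usual readout of its activity, although many of these targets also respond to other stress signals.

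Binding sequences of p53 were looked for in the promoters to show which members carry the element by which the factor is known to act. RefSeq promoter windows (build GRCm38.p6, 250 bases before to 50 after a transcript start) were found for 24 of the 32 members, 36 windows in all. Each was searched for the spacer-free form of the p53 response element, a pair of adjoining 10-base repeats that reads the same on both strands. Matches with at most 3 of 20 bases off the consensus were kept. Sites with a spacer, or outside the windows, were not searched. Of the 24 members, 10 (41.7%) held such a match, against 7.2% of the 27025 genes in the table. With at most 1 mismatch these shares were 8.33% (Cdkn1a and Ccng1) and 0.107%. A gene counted if any of its windows matched, and the 27025 genes had 32851 windows, fewer per gene than the members. The members were listed as p53 pathway genes and targets, so their higher share is not an independent result. The mismatch limit was chosen after the windows and the expression values had been seen, and a match is a description of the letters, not evidence of binding. The following matches lay before the start and outside annotated exons. Those of Cdkn1a and Ccng1 are the closest to the consensus, Bbc3 and Trp53 show a death gene and p53 itself, and Mdm4 and Sesn1 are members whose genotypes did not overlap. Capitals mark the 20-base match and lower case the flanks, written 5′ to 3′ on the strand of the gene.
Cdkn1a (chr17:29090908-29090967, plus strand): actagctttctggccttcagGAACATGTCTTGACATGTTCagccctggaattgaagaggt
Ccng1 (chr11:40755442-40755501, minus strand): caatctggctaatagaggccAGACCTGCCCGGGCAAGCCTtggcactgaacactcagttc
Bbc3 (chr7:16309466-16309525, plus strand): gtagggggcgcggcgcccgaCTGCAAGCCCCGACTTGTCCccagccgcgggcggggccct
Trp53 (chr11:69580264-69580323, plus strand): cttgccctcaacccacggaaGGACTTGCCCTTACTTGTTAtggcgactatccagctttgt
Mdm4 (chr1:133025606-133025665, minus strand): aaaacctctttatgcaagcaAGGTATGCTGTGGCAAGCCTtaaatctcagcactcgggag
Sesn1 (chr10:41887246-41887305, plus strand): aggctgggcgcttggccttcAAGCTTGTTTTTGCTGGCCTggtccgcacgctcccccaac
The Cdkn1a match had 1 mismatch and began 51 bases before the more upstream of its searched starts. The Ccng1 match had 1 mismatch and began 195 bases before its start. The matches in Bbc3, Trp53, Mdm4 and Sesn1 each had 3 mismatches. The Bbc3, Mdm4 and Sesn1 matches lie within the span of their own gene in GENCODE M21, since their windows belong to transcript starts inside it. The other members with a match were Trp73, with 2 mismatches, and Aen, Bax and Polk, with 3. Cdkn1a, Bbc3, Mdm4, Sesn1, Trp73 and Polk also had searched windows at other transcript starts. Those windows held no match, with 5 or 6 mismatches at best.

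The p53 pathway RNAs showed no shared direction between the Gli1 KO and WT tumours. Of the 31 members tested, 16 had a positive and 15 a negative log2 fold change (KO minus WT), with a median of 0.05 against -0.01 over all 18359 genes tested, of which 48.2% were positive. By edgeR's quasi-likelihood test with Benjamini-Hochberg adjustment over all genes, 0 members passed a false discovery rate (FDR) of 0.05, where 0% of all genes did, and no member had an FDR below 0.9997. The count at an unadjusted p under 0.05 was likewise 0 members, against 3.62% of all genes (1.6% higher and 2.02% lower in KO). DESeq2 called 0 members as well, against 0.352% of 18206 genes, and 0 members had an unadjusted DESeq2 p under 0.05, against 3.88% of 28057 genes. The genotypes did not overlap for 3 members (9.68%), a share close to the 8.11% of all genes. Ddb2 was the member higher in KO, where 4.15% of all genes were, and Mdm4 and Sesn1 were lower, where 3.96% were. Log2 fold changes of the members ran from -0.95 (Btg2) to 0.63 (Phlda3).

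Leaving out each library in turn left few members past an unadjusted p of 0.05. The members at that level numbered 0 without WT replicate 1 (4.08% of all genes), 0 without WT replicate 2 (3.24%), 0 without KO replicate 1 (2.76%) and 0 without KO replicate 3 (2.66%). Omitting WT replicate 3 gave 1 member, Cdkn1a (9.47% of all genes), and omitting KO replicate 2 gave 1, Ei24 (2.99%). With both WT replicate 3 and KO replicate 1 omitted there were 0 members, against 6.84%. Members without overlap numbered 3 of 31 without WT replicate 2 (14.7% of all genes), KO replicate 1 (14.8%) or KO replicate 3 (15.3%).

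High values of the members gathered in 2 tumours, 1 of each genotype. WT replicate 3 had the highest level of 12 members (38.7%, against 22.2% of all genes) and KO replicate 1 of a further 9 (29%, against 16%). Thus 21 of 31 (67.7%) were highest in 1 of them, compared with 38.3% of all genes. KO replicate 3 had the highest level of 0 members, against 15.5% of all genes. These counts were made after the values had been seen and have no test. The 2 tumours were also alike over all genes. Their deviations from the genotype means correlated at 0.56, the highest of any WT and KO pair of libraries. The tumours led in different genes. WT replicate 3 was highest in Cdkn1a, Btg2, Plk2, Plk3, Gdf15, Pmaip1, Tnfrsf10b, Eda2r, Aen, Trp53inp1, Ddit4 and Ercc5, while KO replicate 1 was highest in Trp53, Mdm2, Ccng1, Bax, Apaf1, Phlda3, Zmat3, Sesn2 and Polk. The ratio of the highest to the lowest library had a median of 2.06 over the members and 2.06 over all genes.

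**Figure D1:**
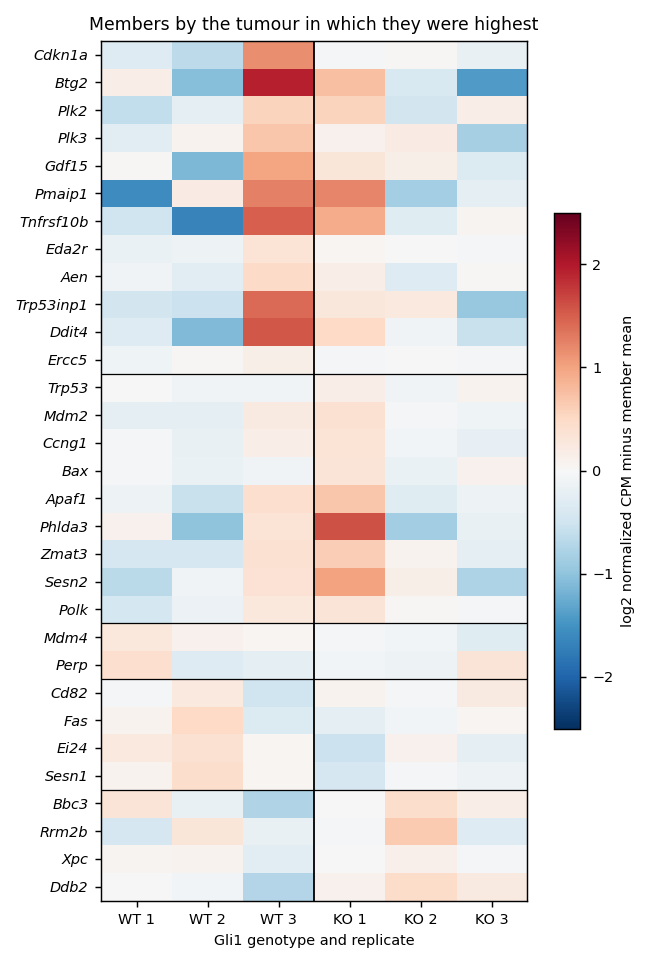
Log2 normalized CPM of each member minus its mean over the 6 libraries (colour), with libraries in columns and the 31 tested members in rows, grouped by the library in which they were highest. The first block of 12 rows is reddest in WT replicate 3 and the second block of 9 rows in KO replicate 1, on opposite sides of the line between genotypes.

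Label checks and cell type markers were read in the same libraries, and some of them were highest in these tumours while others were not. Gli1 had 10, 20 and 7 reads in WT replicates 1, 2 and 3 and 4, 3 and 3 in the KO replicates, in the direction of the labels (log2 fold change -2.24 ± 0.65), among totals of 75205624 to 132979502 reads per library. Sulf2, the gene labelled as overexpressed, had 76.4, 11.6 and 5.33 normalized CPM across WT replicates 1 to 3 and 164, 2.63 and 10.2 across KO replicates 1 to 3. The level in 4 of the 6 libraries, WT replicate 3 included, was thus far below that of the other pair. All 6 hepatocyte markers were detected in every library, with summed levels of 145710 to 191979 normalized CPM in the WT tumours and 134258 to 154650 in the KO tumours, KO replicate 1 being the lowest. Sums over all 5 stellate cell markers were 31.8 to 169 in the WT tumours, highest in replicate 3, and 140 to 307 in the KO tumours, highest in replicate 1. Of the 5 cholangiocyte markers, Epcam had 4.29 CPM in WT replicate 3 and 3.28 in KO replicate 1 against 0.21 to 1.10 elsewhere, and the list summed to 479 in WT replicate 3, 433 in KO replicate 1 and 472 in KO replicate 3, against 38.8 to 79.9 in the other libraries. That sum was mostly Spp1, at 457, 413 and 465 CPM in those 3 libraries. In KO replicate 3 Epcam was the lowest of all libraries, and Krt7 and Krt19 were at 0.23 CPM each, against 2.08 and 3.04 in WT replicate 3. Sums over the 5 neutrophil markers were 9.16 to 33.4 in the WT tumours, again highest in replicate 3, and 4.40 to 8.25 in the KO tumours, with Ly6g at 0 reads in KO replicate 3. Sums of the 6 macrophage markers were 65.7 to 232 in the WT tumours and 53.4 to 87.3 in the KO tumours, and those of the 6 endothelial markers 176 to 221 and 121 to 163. The endothelial markers did not move together, and 2 of the 6 had a positive fold change. In KO replicate 1 Pecam1 and Cdh5 were at their highest, 40.5 and 44.4 CPM, and Lyve1 and Clec4g at their lowest, 4.91 and 5.72. The 5 B and plasma cell markers summed to 59.9 in WT replicate 3 and 19.8 in KO replicate 1, against 6.01 to 9.63 elsewhere. The 5 proliferation markers summed to 89.4 in KO replicate 3, 40.4 in WT replicate 3 and 33.6 in KO replicate 1, against 8.36 to 15.6 elsewhere, and the 3 erythroid markers to 63.4 to 131. The part of Sulf2 level and of these cell types in the members' values was not tested, and in bulk tumours fewer cells of a type cannot be told apart from less RNA per cell.

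Trp53 itself was nearly level across the tumours. Normalized CPM (counts scaled to library size with TMM factors) were 18.9, 17.7 and 17.8 in WT replicates 1, 2 and 3 and 21.2, 17.8 and 19.9 in the KO replicates. The genotypes overlapped and the highest library had 1.20 times the lowest, the narrowest span of any member. Its difference on the log2 scale was 0.12 ± 0.14 (standard error, as for all fold changes given with ±; 3 libraries per genotype; edgeR FDR 0.9997). Deposited RPKM, which are scaled to gene length and so allow genes to be compared, had a median of 3.81 for Trp53.

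Mdm2, the ubiquitin ligase that removes p53, varied more. It had 31.9, 32.1 and 43.8 CPM in the WT tumours and 49.0, 36.1 and 34.5 in the KO tumours, highest in KO replicate 1 and second in WT replicate 3. Its log2 fold change of 0.15 ± 0.21 was -0.02 when KO replicate 1 was omitted and 0.32 when WT replicate 3 was.

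Mdm4, a relative of Mdm2 that binds and blocks p53, had 55.1, 49.5 and 47.7 CPM in the WT tumours and 45.0, 43.9 and 37.4 in the KO tumours. Every KO tumour lay below every WT tumour, by a small margin. The log2 fold change was -0.27 ± 0.15 and did not pass (edgeR FDR 0.9997, unadjusted p = 0.115), and it stayed between -0.31 and -0.19 when each library was left out. Per length, Mdm4 had a median RPKM of 2.74 and Mdm2 one of 6.41. An Mdm4 pseudogene drew 539 reads over the 6 libraries. Trp73, a p53 relative, had 0 reads in every library, which allows up to 0.0396 normalized CPM (3 reads) in WT replicate 2, the shallowest library.

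**Figure D2:**
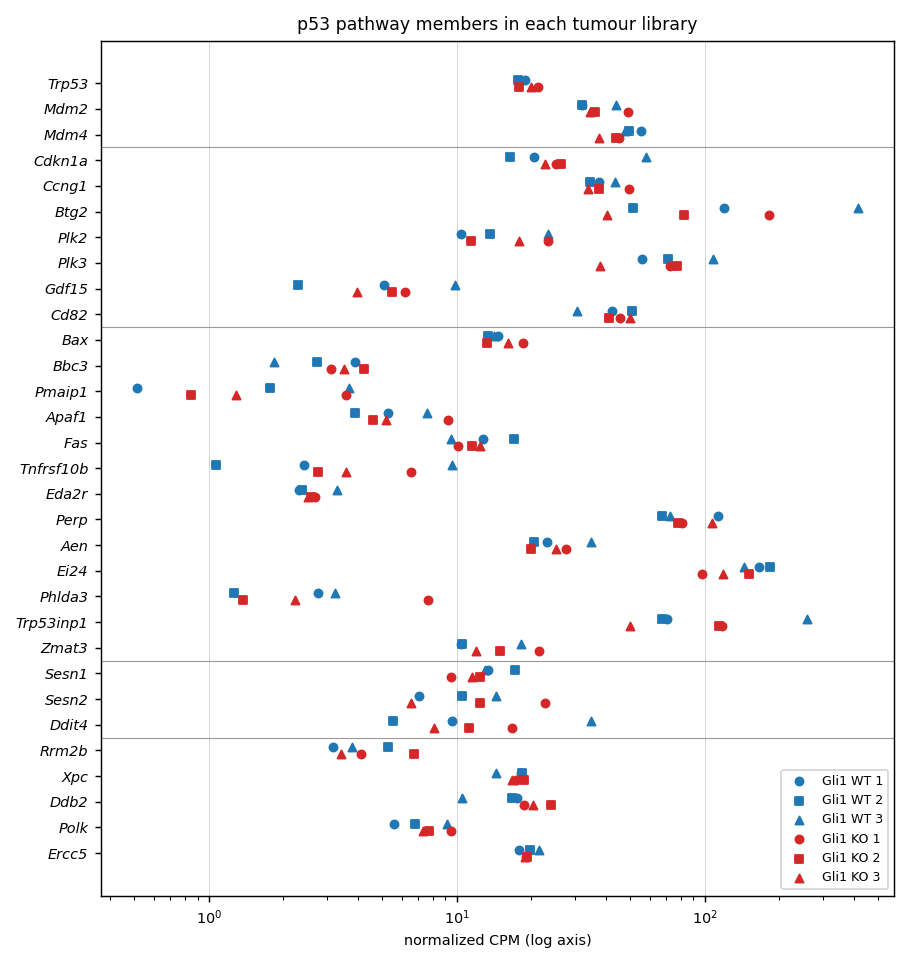
Normalized CPM (log axis) of the 31 tested members in each library, WT in blue and KO in red, with a marker shape per replicate number; grey lines separate the role groups. Red and blue points interleave for all members except Mdm4, Sesn1 and Ddb2, and the blue triangle (WT replicate 3) sits far to the right for Btg2, Trp53inp1, Cdkn1a and Ddit4.

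Among genes that arrest the cell cycle or curb growth, 3 of 7 were positive, 4 were negative and 0 were free of overlap, where 8.11% of all genes were. Cdkn1a, which encodes the cyclin-dependent kinase inhibitor p21, had 20.5, 16.3 and 57.9 CPM in the WT tumours and 25.1, 26.4 and 22.6 in the KO tumours. WT replicate 3 stood far above all others, and the remaining WT libraries lay below every KO library. The log2 fold change was accordingly -0.35 ± 0.47 with all libraries (edgeR FDR 0.9997) and 0.43 without WT replicate 3, where the unadjusted p was 0.0486 and no member passed FDR 0.05. In that setting the genotypes did not overlap for 11 members, against 28% of all genes.

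Btg2, an antiproliferative factor that promotes mRNA deadenylation, had 120, 51.3 and 416 CPM in the WT tumours and 182, 82.7 and 40.2 in the KO tumours. Its highest library had 10.4 times the lowest, the widest span of the members. The fold change of -0.95 ± 0.85 became 0.25 without WT replicate 3 and -1.66 without KO replicate 1.

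The stress kinases Plk2 and Plk3 and the secreted stress factor Gdf15 were also highest in WT replicate 3. Plk3 had 56.0, 71.3 and 108 CPM in the WT tumours and 72.4, 77.6 and 37.9 in the KO tumours. Gdf15 had 5.10, 2.30 and 9.87 CPM in the WT tumours and 6.19, 5.50 and 3.97 in the KO tumours. For Plk2, WT replicate 3 and KO replicate 1 were level at 23.3 CPM each, above 10.4 to 17.8 elsewhere.

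Ccng1, the p53-induced cyclin G1, ran from 33.9 to 49.5 CPM, with KO replicate 1 highest and WT replicate 3 next at 43.6. Its fold change of 0.06 ± 0.19 was -0.10 without KO replicate 1. Cd82, a tetraspanin known as a metastasis suppressor, was lowest in WT replicate 3 at 30.4 CPM against 41.2 to 50.9 elsewhere.

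The 13 cell death members were divided as well, with 6 positive, 7 negative and 0 free of overlap, again beside 8.11% of all genes. Bax, the pore former of the mitochondrial outer membrane, had 14.7, 13.3 and 14.1 CPM in the WT tumours and 18.6, 13.2 and 16.1 in the KO tumours (log2 fold change 0.19 ± 0.18). The death signals upstream of it did not follow each other. Bbc3 (PUMA) was lowest in WT replicate 3, with 3.88, 2.73 and 1.83 CPM in the WT tumours and 3.11, 4.21 and 3.50 in the KO tumours. Pmaip1 (NOXA) was highest there, with 0.51, 1.77 and 3.66 CPM in the WT tumours and 3.57, 0.85 and 1.29 in the KO tumours. Both encode BH3-only proteins that free Bax, and their fold changes were 0.36 ± 0.34 and -0.06 ± 0.80. Apaf1, the scaffold of the apoptosome, ran from 3.90 to 9.25 CPM, highest in KO replicate 1.

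The death receptor Tnfrsf10b, the mouse receptor for TRAIL, spread 8.94-fold. It had 2.42, 1.07 and 9.57 CPM in the WT tumours and 6.51, 2.75 and 3.56 in the KO tumours. Leaving out WT replicate 3 turned its log2 fold change of -0.03 ± 0.79 into 1.29. Fas, the receptor of Fas ligand, had 12.7, 17.0 and 9.49 CPM in the WT tumours and 10.1, 11.5 and 12.4 in the KO tumours. WT replicate 3 was thus the lowest library for Fas and the highest for Tnfrsf10b. Eda2r, a receptor for ectodysplasin A2, stayed between 2.32 and 3.29 CPM.

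Phlda3, which blocks membrane recruitment of the kinase AKT, had 2.74, 1.27 and 3.23 CPM in the WT tumours and 7.63, 1.38 and 2.23 in the KO tumours. The 803 reads of KO replicate 1 give an exact 95% Poisson interval of 7.11 to 8.17 CPM, against 2.86 to 3.62 CPM for the next tumour, WT replicate 3. The fold change of 0.63 ± 0.69 was -0.41 without KO replicate 1. Zmat3, an RNA-binding zinc finger protein, had 10.4, 10.5 and 18.2 CPM in the WT tumours and 21.5, 15.0 and 11.97 in the KO tumours, also highest in KO replicate 1.

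Trp53inp1, which promotes autophagy and cell death, had 70.4, 67.1 and 259 CPM in the WT tumours and 118, 114 and 50.02 in the KO tumours. Like Btg2 and Ddit4 it was highest in WT replicate 3 and second in KO replicate 1. Aen, a nuclease, had 34.7 CPM in WT replicate 3 and 19.9 to 27.7 elsewhere. Perp, a membrane protein of cell junctions, ran from 67.5 to 114 CPM, highest in WT replicate 1, and had the highest median RPKM of the members at 38.9.

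Ei24, an endoplasmic reticulum protein linked to autophagy, had the smallest p of the cell death members. It had 165, 183 and 145 CPM in the WT tumours and 97.3, 151 and 119 in the KO tumours, and KO replicate 2 overlapped WT replicate 3. The fold change was -0.42 ± 0.22 (edgeR FDR 0.9997, unadjusted p = 0.0977), and it was -0.60 without KO replicate 2 (unadjusted p = 0.0473). Its exons overlap those of the antisense gene Gm26787 over 324 bases, and Gm26787 followed the same order of libraries, with 15.2, 16.6 and 12.7 CPM in the WT tumours and 8.76, 13.7 and 10.4 in the KO tumours. No source used here states whether counting was stranded, so reads of this pair cannot be told apart where they overlap.

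**Figure D3:**
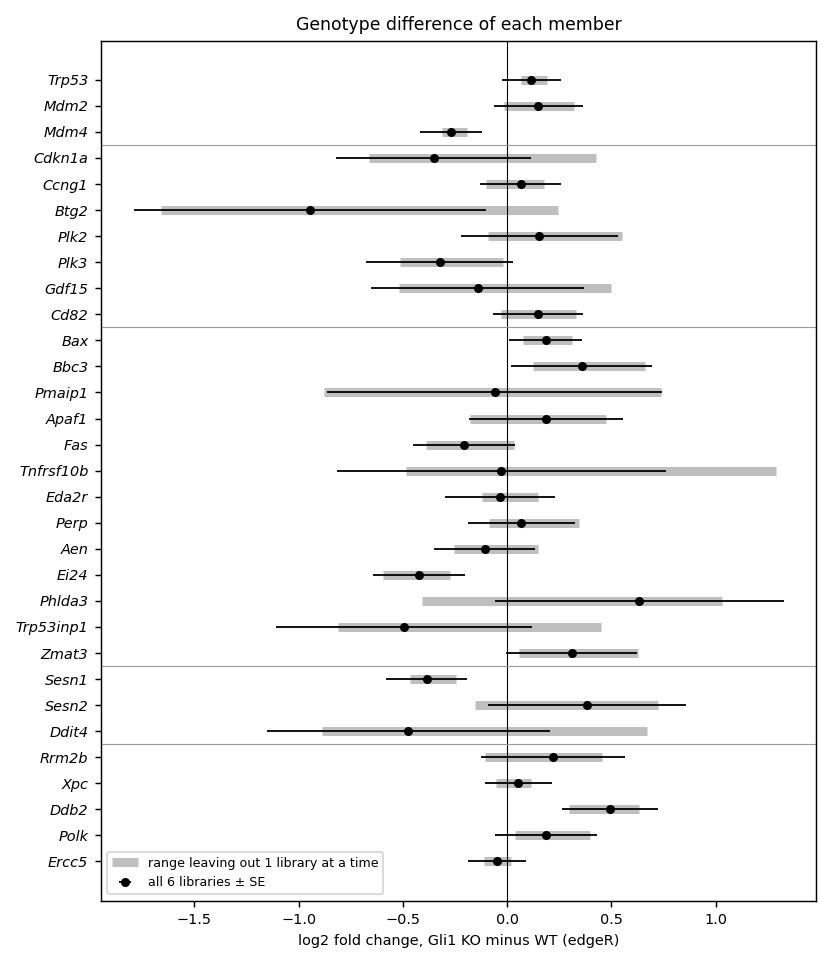
Log2 fold change of each member (KO minus WT, edgeR) with its standard error from all 6 libraries (black), over the lowest to highest value obtained when 1 library at a time was left out (grey bar); grey lines separate the role groups. Grey bars cross 0 for 21 of the 31 members and are longest for Btg2 and Tnfrsf10b.

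The stress and metabolism members restrain the growth kinase complex mTORC1, and they differed in which tumour was high. Sesn1 had 13.4, 17.2 and 13.0 CPM in the WT tumours and 9.43, 12.4 and 11.5 in the KO tumours, with every KO tumour below every WT tumour. Its fold change was -0.39 ± 0.19 (edgeR FDR 0.9997, unadjusted p = 0.0881) and kept to -0.47 to -0.25 when each library was left out. Sesn2, its paralog, had 7.05, 10.5 and 14.4 CPM in the WT tumours and 22.6, 12.4 and 6.55 in the KO tumours. KO replicate 1 was thus the lowest library for Sesn1 and the highest for Sesn2. Ddit4 (REDD1) had 9.54, 5.51 and 34.9 CPM in the WT tumours and 16.7, 11.2 and 8.10 in the KO tumours, with WT replicate 3 far above the rest, and its fold change of -0.47 ± 0.68 was 0.67 without that library.

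Of the 5 repair members, 4 were positive and 1 was negative. Ddb2, the damage-recognition subunit that opens nucleotide excision repair on chromatin, had the smallest p of all members. It had 17.5, 16.6 and 10.5 CPM in the WT tumours and 18.7, 23.9 and 20.3 in the KO tumours, with every KO tumour above every WT tumour. The fold change was 0.49 ± 0.23 (edgeR FDR 0.9997, unadjusted p = 0.0712), and it was 0.30 without WT replicate 3, the lowest library. Acp2, on the opposite strand, shares 652 exon bases with Ddb2 (23.8% of its exon length), so their reads cannot be told apart there. Acp2 also peaked in KO replicate 2 and was lowest in WT replicate 3, with 54.7, 56.7 and 30.5 CPM in the WT tumours and 56.2, 67.5 and 52.3 in the KO tumours.

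The other repair genes differed less between tumours. Xpc, the DNA-binding partner in damage recognition, stayed between 14.4 and 18.7 CPM, and Ercc5, the endonuclease XPG, between 17.8 and 21.4. Polk, a translesion polymerase, ran from 5.59 to 9.44 CPM, highest in KO replicate 1 and next in WT replicate 3. Rrm2b, the p53-induced small subunit of ribonucleotide reductase, had 3.18, 5.28 and 3.77 CPM in the WT tumours and 4.10, 6.72 and 3.43 in the KO tumours.

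Members with and without a promoter match can be set side by side. The 9 tested members with a match had a median log2 fold change of 0.06 (range -0.39 to 0.36), and the 14 with a searched window and no match had -0.04 (range -0.95 to 0.63). The highest library had a median of 1.69 times the lowest in members with a match and 2.31 times in those without. These are descriptions of small lists, and no match says only that these letters are absent from the window.

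The rest of the pathway was read from 6 further lists. Of 118 genes tested in them, 0 passed FDR 0.05 in edgeR and 4 (3.39%) had an unadjusted p under 0.05, close to the 3.62% of all genes. Of the 4, 2 were higher in KO and 2 lower, where 1.6% and 2.02% of all genes were. The share of the lists depended on the setting. It was 9.24% with DESeq2, against 3.88% of all genes, and 0.84% without WT replicate 1, against 4.08%. Among 21 genes of damage sensing and checkpoint signalling, 14 were positive, with a median of 0.08 that was -0.002 without KO replicate 3. Brca1, which directs repair of broken DNA, had 3.36, 4.57 and 4.68 CPM in the WT tumours and 5.30, 7.80 and 8.71 in the KO tumours (0.79 ± 0.27, edgeR unadjusted p = 0.0235), without overlap. Topbp1, an activator of the kinase ATR, had 0.65 ± 0.31 and 0.28 without KO replicate 3. Of these 21 genes, 13 were highest in KO replicate 3, where 15.5% of all genes were.

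Regulators of p53 had 7 of 17 genes positive and a median of -0.05, which was 0.08 without WT replicate 3 and -0.17 without WT replicate 1. Cdkn2a, whose ARF product inhibits Mdm2, had 0.20, 0.12 and 1.05 CPM in the WT tumours and 6.01, 0.69 and 0.63 in the KO tumours. KO replicate 1 was highest in Cdkn2a and in 9 members (29%, against 16% of all genes), Mdm2, Ccng1 and Phlda3 among them. It was lowest in 2 members (6.45%, against 14.6% of all genes), Sesn1 and Ei24. Cdkn1a had 25.1 CPM there, below the 57.9 of WT replicate 3. Counts per gene do not show how much of the Cdkn2a RNA encodes ARF. Any link between Cdkn2a and the members' values was not tested. Omitting KO replicate 1 cut the Cdkn2a fold change of 2.42 ± 1.21 to 0.54. Omitting WT replicate 3 raised it to 3.92. The transcriptional repressor Bcl6 had 0.98 ± 0.45, against 0.50 without KO replicate 2.

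Further p53 targets had 18 of 34 genes positive and a median of 0.06, which was 0.33 without WT replicate 3 and -0.08 without KO replicate 1. Dcxr, a carbonyl reductase, had 65.8, 74.3 and 28.6 CPM in the WT tumours and 23.5, 26.6 and 28.9 in the KO tumours, with WT replicate 3 among the KO values (-1.10 ± 0.35, edgeR unadjusted p = 0.0180). Ppp1r15a, which restores translation after stress, had 33.8 CPM in WT replicate 3 against 6.94 to 9.49 elsewhere, and its -1.05 ± 0.56 shrank to -0.07 without that library.

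The apoptosis machinery had 7 of 21 genes positive and a median of -0.05, which ran from -0.09 without WT replicate 3 to 4.46e-05 without KO replicate 2. Fasl, the ligand of Fas made by T and NK cells, had 0.34, 0.16 and 0.49 CPM in the WT tumours and 0.13, 0.06 and 0.16 in the KO tumours (-1.51 ± 0.60, edgeR unadjusted p = 0.0419). These values rest on few reads, since 3 reads equal 0.0226 CPM in KO replicate 2. All 6 T and NK cell markers were also lower in KO in this fit, with summed levels of 2.62 to 5.11 CPM in the WT tumours and 1.80 to 2.77 in the KO tumours, and their part in the Fasl value was not tested. Tnfsf10, which encodes TRAIL, had 0.45 ± 0.31, against 0.20 without WT replicate 3.

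Cell cycle genes that p53 is known to repress through p21 had 17 of 20 positive and a median of 0.73, but 17 of the 20 were highest in KO replicate 3 and the median was -0.04 without it and 1.64 without WT replicate 3. E2f1, a transcription factor of S phase entry, had 1.34, 1.76 and 1.45 CPM in the WT tumours and 1.73, 3.04 and 9.44 in the KO tumours (1.64 ± 0.63, edgeR unadjusted p = 0.0365, and 0.66 without KO replicate 3). The replication helicase gene Mcm6 had 1.71 ± 0.75, and 0.48 without that library. Cdkn1a had 22.6 CPM in KO replicate 3, 57.9 in WT replicate 3 and 16.3 to 26.4 in the remaining libraries. The proliferation markers summed to 89.4 CPM in KO replicate 3 and 40.4 in WT replicate 3, the next highest. The part of p21 in these values was not tested.

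**Figure D4:**
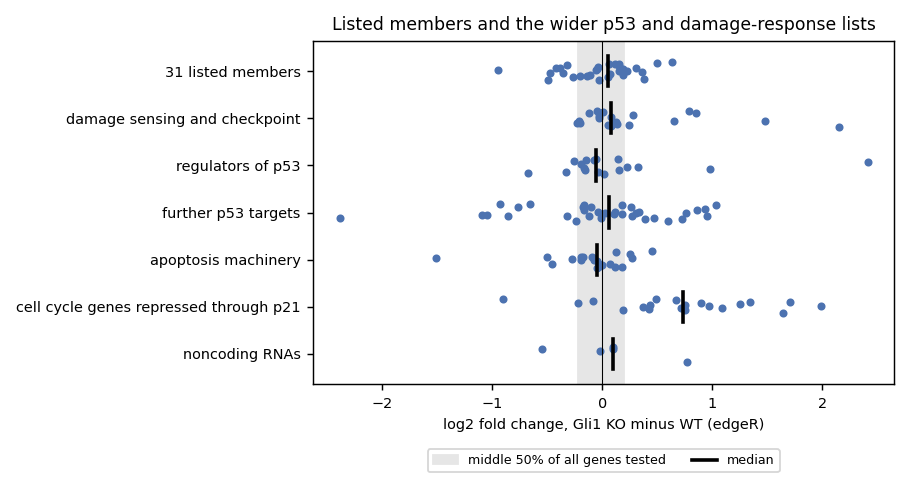
Log2 fold change (KO minus WT, edgeR) of each tested gene, a point per gene, in the 31 members and 6 wider lists; black bars are list medians and the grey band spans the middle 50% of all genes tested (-0.22 to 0.20). Medians lie inside the band except that of the cell cycle genes at 0.73, which was -0.04 without KO replicate 3.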

How the data were processed

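Per the labels, total RNA of 6 liver tumours was extracted with Trizol and made into Illumina RNA-seq libraries. The authors deposited raw read counts and RPKM values per gene; the tools bcl2fastq, HTSeq and TopHat2 2.0.6 are named without roles, and hg19 and GRCh37 as builds, per the submitters' processing notes. The gene identifiers are mouse Ensembl identifiers, and 84.2% of the 42462 shared with GENCODE M21 (GRCm38) have the same start. Deposited RPKM were used only to compare levels between genes.

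Differences in counts were fitted with edgeR 4.0.16 under R 4.3.3 (filterByExpr, TMM factors, robust quasi-likelihood, two-sided, Benjamini-Hochberg over 18359 genes), after the code was tested on simulated data. Genotype was taken from the sample titles. Alternatives used DESeq2 1.42.0, limma 3.58.1 voom, other factors and filters, a replicate block, a description number covariate and omission of each library. The covariate set sample descriptions opening with a number above 3000 (WT replicates 2 and 3 and KO replicate 2) against the rest, so it was partly tied to genotype. Intervals are exact 95% Poisson intervals of counting error only. The members, lists and tests were chosen with earlier results of these data known. Values by library were given by rule for Trp53, Cdkn1a, Mdm2, the member of smallest p in each role group and members without overlap; the 2 genes of smallest p in each wider list were named, some by fold change alone. The other members detailed were chosen after their values were seen. Promoter windows come from RefSeq.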

Additional observations from a re-analysis of the deposited data

How the results depend on the processing

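For the genotype comparison, 0 members passed FDR 0.05 under each alternative run, and over all genes DESeq2 called 64 where edgeR called 0. Leaving out 1 library at a time gave 0 to 1 members at an unadjusted p under 0.05 (Cdkn1a without WT replicate 3 and Ei24 without KO replicate 2) and 3 to 11 members without overlap. That count was 11 without WT replicate 3 (28% of all genes), 7 without WT replicate 1 (18%) and 6 without KO replicate 2 (16.5%), where fewer libraries make overlap rarer. Omission of both WT replicate 3 and KO replicate 1, chosen after seeing the data, also gave 11 (36.5% of all genes). The members' median log2 fold change was lowest, -0.12, when KO replicate 1 was omitted and highest, 0.19, when WT replicate 3 was. Over the wider lists, genes at an unadjusted p under 0.05 numbered 4 (3.39% of the list genes tested, against 3.62% of all genes). They numbered 11 with DESeq2 (9.24% against 3.88%) and 7 without the low-count filter (5.74% against 3.17%). The replicate block gave 9 (7.63% against 2.73%), and omission of both tumours gave 9 (7.56% against 6.84%). Leaving out 1 library gave 1 without WT replicate 1 (0.84% against 4.08%) to 10 without WT replicate 3 (8.4% against 9.47%). There were 8 without KO replicate 2 (6.72% against 2.99%) and 2 without KO replicate 3 (1.69% against 2.66%). These alternatives for the wider lists were added after seeing the data.

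The sign of 10 of 31 members held throughout. It changed for 21 when a library was left out, with these ranges of log2 fold change. Tumours decided the sign of Mdm2 (-0.015 to 0.32), Cdkn1a (-0.66 to 0.43), Ccng1 (-0.10 to 0.18), Btg2 (-1.66 to 0.25), Plk2 (-0.0936 to 0.55), Gdf15 (-0.52 to 0.50), Cd82 (-0.0273 to 0.33), Pmaip1 (-0.88 to 0.74), Apaf1 (-0.18 to 0.47) and Fas (-0.39 to 0.0308). They also decided that of Tnfrsf10b (-0.49 to 1.29), Eda2r (-0.12 to 0.15), Perp (-0.089 to 0.34), Aen (-0.25 to 0.15), Phlda3 (-0.41 to 1.03), Trp53inp1 (-0.81 to 0.45), Sesn2 (-0.15 to 0.72), Ddit4 (-0.89 to 0.67), Rrm2b (-0.11 to 0.45), Xpc (-0.0518 to 0.11) and Ercc5 (-0.11 to 0.021). Without both tumours the sign changed for Cdkn1a (0.42), Ccng1 (-0.0059), Gdf15 (0.36), Cd82 (-0.0225), Tnfrsf10b (0.86), Eda2r (0.13), Aen (0.0501), Phlda3 (-0.15), Trp53inp1 (0.26), Ddit4 (0.36), Xpc (-0.0391) and Ercc5 (0.0284). It changed with voom for Gdf15 (0.0635), Pmaip1 (0.0329) and Tnfrsf10b (0.39), with upper-quartile factors for Tnfrsf10b (0.00397), and with the description number covariate for Pmaip1 (0.26), Tnfrsf10b (0.0507), Eda2r (0.018) and Perp (-0.0598). The cause of these changes was not tested.

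Same-numbered WT and KO libraries correlated at -0.26, 0.22 and -0.40 in their deviations from the genotype means, and no WT library correlated best with its own number, so the replicate numbers were not read as pairs. With the replicate block 0 members and 0 of all genes passed FDR 0.05, and the sign changed for Gdf15 (0.0855) and Tnfrsf10b (0.51). Among the members, low reads limit Pmaip1, with 41 to 376 per library, and Trp73. In the wider lists, Fasl, Cdkn2a and Trp53cor1 fell as low as 0.06, 0.12 and 0.13 CPM, where 3 reads equal 0.0226 to 0.0396 CPM. No counting intervals were computed for these genes.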

Other observations

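Of the noncoding RNAs tied to p53, 5 of 8 listed had enough reads to be tested, 3 were positive and the median log2 fold change was 0.10, which was -0.09 without KO replicate 2 and 0.21 without KO replicate 3. Trp53cor1 (lincRNA-p21), a transcript beside Cdkn1a that p53 is known to induce, had 0.49, 0.44 and 0.13 CPM in WT replicates 1, 2 and 3 and 0.84, 0.47 and 0.51 in the KO replicates, lowest in WT replicate 3, where Cdkn1a was highest at 57.9 CPM, and highest in KO replicate 1. The 0.13 CPM of Trp53cor1 rests on few reads, since 3 reads equal 0.0337 CPM in WT replicate 3. The log2 fold change of Trp53cor1 was 0.77 ± 0.57 (edgeR FDR 0.9997) and 0.38 without WT replicate 3. Mir143hg, the host transcript of a microRNA pair, had -0.55 ± 0.50, against -0.23 without WT replicate 3. Neat1, a nuclear scaffold RNA that p53 is also known to induce, ran from 172 CPM in KO replicate 3 to 721 in KO replicate 2, and Tug1 stayed between 38.7 and 51.2 CPM.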
